A study of Homo sapiens with 2 samples.

Results

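Heat shock proteins, their DNAJ co-chaperones and the heat shock transcription factors (HSF) were examined in SAS cells, a line of human tongue squamous cell carcinoma, and in eSAS cells, which were derived from them by 5 successive rounds of enrichment for large spheroids in a tool with a detachable mesh. The members were taken by their gene names on the array, as names starting with HSPA to HSPE, HSPH, HSP and a digit, DNAJA, DNAJB or DNAJC and a digit, or HSF1 to HSF4, without HSPA5, HSP90B1, DNAJB9, DNAJB11 and DNAJC3, which belong to the endoplasmic reticulum stress response, and without names starting with HSPG. This gave 74 of the 30484 gene names on the array, with 119 probes in 128 spots. Of the 74 names, 11 are HSPC with a number, which are clones named for haematopoietic stem and progenitor cells and not heat shock proteins, and they are counted apart where it matters.

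Total RNA of SAS and eSAS cells in logarithmic growth was hybridised to 1-colour microarrays, with 1 array of each on 1 slide. Both were grown in the same serum-containing medium, the labels name no transgene or drug for either, and eSAS was a selected population of a single line. Since neither population was measured again, SAS and eSAS could not be compared by a test, no p-value is given, and precision is limited by the number of arrays. All 10 listed epithelial and squamous markers, among them EPCAM, TP63 and KRT5, were well above background on both arrays. Their levels differed, and after scaling of the arrays CDH1, KRT5, KRT14, KRT17, KRT6A, TP63 and SFN were lower in eSAS cells. EPCAM, KRT8 and KRT18 were not. Of 4 leukocyte markers 1 (CD68) was well above background on both arrays. Of 5 fibroblast markers 1 was so on each array, COL1A1 in SAS and LUM in eSAS cells. Of 3 endothelial markers 2 were so in SAS and 1 in eSAS cells.

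Heat shock proteins are chaperones that bind unfolded or partly folded proteins. HSP70 proteins (the HSPA genes) take up such clients with the help of DNAJ proteins, which bring clients and stimulate the ATPase of HSP70, and of nucleotide exchange factors, which release them, while HSP90, the small heat shock proteins (HSPB) and the mitochondrial chaperonin act beside or after HSP70. Under stress HSF1 forms trimers that bind heat shock elements, inverted repeats of the unit GAA, and the chaperone genes are often strongly expressed in carcinomas.

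The signal is the processed intensity of the scanner software, deposited by the authors with background subtracted but with no scaling of one array to the other. Each log2 ratio below is the log2 of the eSAS signal minus that of the SAS signal, after each was set relative to the 75th percentile of its array, 1242 for SAS and 1196 for eSAS. Of the 119 member probes, 102 were well above background on both arrays by the software's criterion, 2 in SAS alone, 0 in eSAS alone and 15 in neither. One of the 102, for HSPA9, had been marked as non-uniform and was left out, so 101 probes gave a value for 61 of the 74 genes. Among replicate spots of a probe the log2 ratio had a pooled SD of 0.0756 (214 probes spotted several times). This SD is technical and holds no variation between cultures.

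Heat shock elements of 3 alternating units (GAA, any 2 bases, TTC, any 2 bases, GAA) and their reverse complement, which starts and ends with TTC, were searched on both strands in the RefSeq promoter windows of GRCh38.p14, from 250 bases before to 50 bases after the start of a gene. A window was given for 65 of the 74 members. The element was present in 7 of them (10.8%), HSP90AA1, HSP90AB1, HSPA8, HSPA6, HSPD1, DNAJA1 and DNAJB6, against 0.608% of the 27305 genes with a window. The stretches before the start are shown for the 6 members in which it lay upstream, since HSF trimers are known to bind this element, and the matching letters are in capitals. For the first 5 the last 140 bases before the start are given, and for HSPD1 all 250 bases, because its elements lay at the far end.
HSP90AA1, chr14:102087045-102087184, minus strand: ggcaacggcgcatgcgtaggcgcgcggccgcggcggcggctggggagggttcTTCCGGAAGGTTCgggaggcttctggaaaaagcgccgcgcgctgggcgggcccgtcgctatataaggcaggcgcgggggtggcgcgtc
HSP90AB1, chr6:44247803-44247942, plus strand: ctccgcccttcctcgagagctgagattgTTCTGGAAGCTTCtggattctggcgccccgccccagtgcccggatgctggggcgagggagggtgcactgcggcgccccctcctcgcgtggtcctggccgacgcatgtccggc
HSPA8, chr11:123062137-123062276, minus strand: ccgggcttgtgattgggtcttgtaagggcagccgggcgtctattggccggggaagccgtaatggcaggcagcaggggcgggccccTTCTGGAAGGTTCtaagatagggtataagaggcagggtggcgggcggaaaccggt
HSPA6, chr1:161524400-161524539, plus strand: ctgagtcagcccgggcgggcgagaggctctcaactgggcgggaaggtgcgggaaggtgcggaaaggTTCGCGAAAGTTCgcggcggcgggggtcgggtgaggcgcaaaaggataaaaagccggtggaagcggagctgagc
DNAJB6, chr7:157336864-157337003, plus strand: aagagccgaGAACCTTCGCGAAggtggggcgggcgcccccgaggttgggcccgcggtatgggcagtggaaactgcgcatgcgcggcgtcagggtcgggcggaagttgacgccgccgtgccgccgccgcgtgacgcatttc
HSPD1, chr2:197499841-197500090, minus strand: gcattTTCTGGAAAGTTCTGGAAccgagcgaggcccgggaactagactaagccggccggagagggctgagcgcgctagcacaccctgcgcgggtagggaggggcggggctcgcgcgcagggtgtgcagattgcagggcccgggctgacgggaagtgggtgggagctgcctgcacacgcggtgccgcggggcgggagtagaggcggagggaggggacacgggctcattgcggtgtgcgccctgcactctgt

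The element began 88 bases before the start in HSP90AA1, at positions -165 and -112 in HSP90AB1, at -230 and -55 in HSPA8, at -74 in HSPA6 and at -131 in DNAJB6. HSPD1 held a pair of overlapping matches that began at -245 and -240, so that a further unit followed the first 3, and DNAJA1 held its match after the start, at position 3. A match of letters is a description and not a binding site. With 2 units, GAA and TTC in either order with any 2 bases between them, which every 3-unit element also holds, 35.4% of the members and 16.2% of all genes had a match.

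The chaperone system differed little between the arrays. The median log2 ratio over the 61 genes was -0.0092, beside -0.0012 over the 19467 genes with a value, with 27 members above 0 and 34 below it. None of the members was at least 1.5-fold higher in eSAS cells, where 3.19% of all genes were, and 2 of 61 were at least 1.5-fold lower, HSPA12A and DNAJC15, where 4.99% of all genes were. At 2-fold, 0 members were higher and 1 was lower, beside 1.01% and 1.37% of all genes. With the HSPC clones left out, the median over 52 genes was -0.01 and the same 2 genes were lower. In bulk RNA of this kind, fewer cells that express a gene and less of its RNA per cell cannot be told apart.

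**Figure D1:**
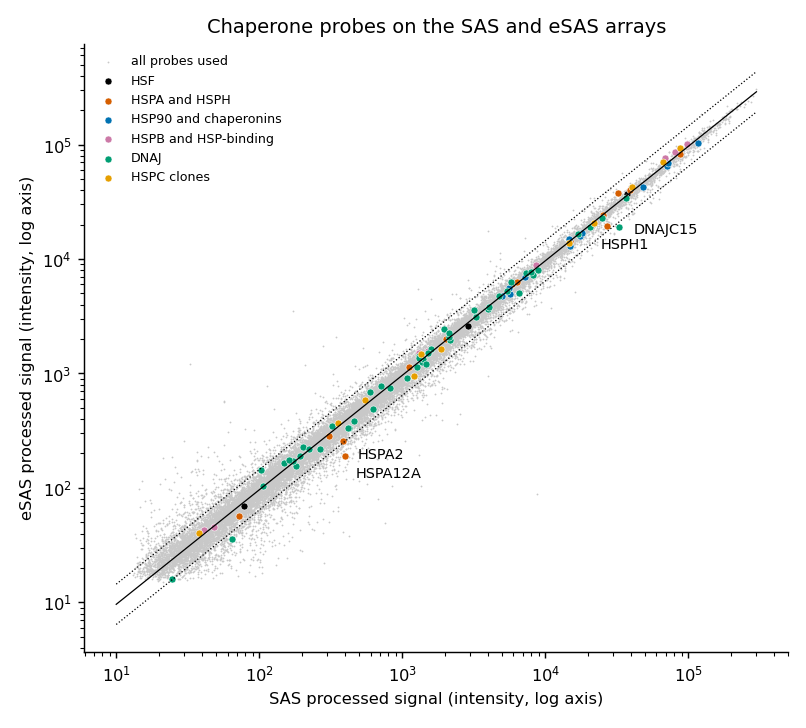
Processed signal of each probe in SAS cells (x axis) and eSAS cells (y axis), both as intensity on log axes, for all 26659 unmarked probes with signal well above background in both cells (grey) and for the 101 member probes (coloured by family). The solid line is equality after scaling and the dotted lines are 1.5-fold apart; most member probes lie between the dotted lines, and the probes of DNAJC15 and HSPA12A and 1 probe of DNAJC16 lie below them.

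Of the 61 genes, 57 (93.4%) lay within 1.25-fold of equality, as did 78.9% of all genes. Within the SD of replicate spots lay 25 of the 61 members and 5996 of all 19467 genes. The SD over members was 0.22 and over all genes 0.37. Part of the members' probes were bright, and bright probes spread less. Among the probes above the 75th percentile, 1 of 66 member probes (1.52%) differed by over 1.5-fold and 338 of all 9570 probes (3.53%) did so. Below it, 2 of 35 member probes (5.71%) and 1789 of 17089 (10.5%) did so. The SD of the log2 ratio was 0.16 for the bright and 0.31 for the dimmer member probes, and 0.23 and 0.42 for all probes of each kind.

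**Figure D2:**
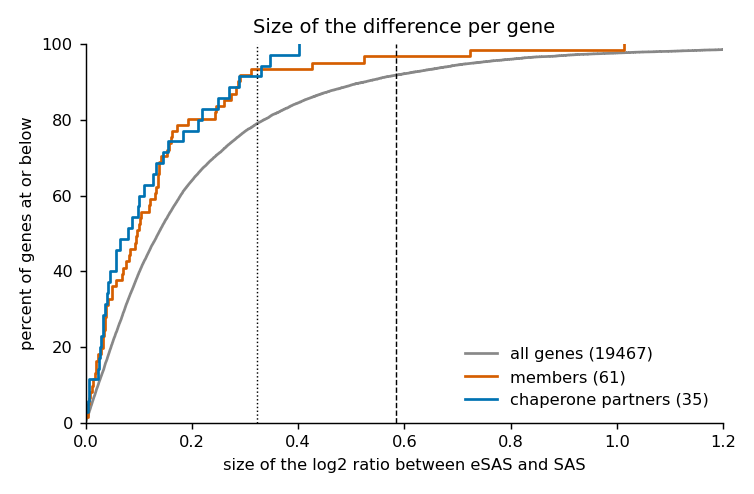
Cumulative percent of genes (y axis) by the size of their log2 ratio between eSAS and SAS (x axis) for 61 members, 35 chaperone partners and all 19467 genes. The dotted line is 1.25-fold and the dashed line 1.5-fold; 93.4% of members and 78.9% of all genes lie left of the dotted line.

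The heat shock transcription factors were close to equal in both cells. The HSF1 probe, for the factor that drives the heat shock response, had 37549 in SAS and 36993 in eSAS cells, a log2 ratio of 0.03. HSF2, which can join HSF1 in mixed trimers, had a probe with 2895 and 2623 (-0.09) and another with 168 and 171 (0.08), so that its probes lay on either side of 0. HSF4, known for its role in the lens, had 77.7 and 69.6 (-0.10). The ratios of HSF1 and the mean for HSF2 were smaller than the SD of replicate spots, and that of HSF4 was above it. These are levels of mRNA and say nothing of the trimers or phosphorylation by which HSF1 is known to be activated.

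Among the HSP70 genes, the main cytosolic forms were level and several others were lower in eSAS cells. HSPA8, the constitutive form, had 4 probes with 69489 and 65632 (-0.03), 87199 and 82665 (-0.02), 6386 and 6308 (0.04), and 32201 and 37957 (0.29). The probes with -0.03 and -0.02 cover the same 60 bases, and the one with 0.29 shares 42 bases with them, so probes of nearly 1 place differed by more than the spot SD. HSPA1A, the stress-inducible form, had 3 probes with 25472 and 24462 (-0.004), 2028 and 2009 (0.04) and 1115 and 1142 (0.09). Its near-identical copy HSPA1B was not among the member names, and signal of the copies on these probes cannot be told apart. The promoters of HSPA8 and HSPA6 shown above hold the element, and HSPA6, whose mRNA is very low without stress, was not well above background on either array (18.7 and 8.91), so no ratio is given.

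HSPA12A, a distant relative of HSP70, was the lowest of all members. Its probe, at chr10:118420780-118420839 of hg18 on the minus strand, had 398.9 in SAS and 190.4 in eSAS cells, 2.02-fold lower in eSAS. The pixels of both spots were even, with medians of 417 and 236 and an SD of 0.174 and 0.162 of their mean, and the 5 usable of 8 adjacent spots had a median log2 ratio of -0.05. The spot lies in row 459, within rows 450 to 510, where 196 of the 267 marked probe spots of the SAS array lie. The other 6 unmarked member spots of those rows that were well above background had log2 ratios between -0.08 and 0.19. A second probe for HSPA12A, at chr10:118440765-118440824, was not well above background on either array (4.37 and 4.25). With no filter on dim probes this second probe entered the mean, which was then -0.50 and no longer beyond 1.5-fold. The value of -1.01 comes from 1 spot on each array, and the part of this array region in it was not tested.

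HSPA2, best known from the testis, had a signal of 385 in SAS and 258 in eSAS cells, a log2 ratio of -0.52 or 1.44-fold lower, just inside the 1.5-fold limit. HSPA1L, which is also mainly a testis gene, had 72.6 and 56.4 (-0.31). HSPH1, an HSP110 protein that releases ADP from HSP70, had 27249 and 19530 (-0.43 or 1.34-fold lower), while the 5 usable spots around it had a median of -0.17. The related exchange factor HSPA4 had probes with 39277 and 39802 (0.07) and with 5855 and 5994 (0.09), and HSPA4L had 305 and 283 (-0.06). HSPA14, which acts at the ribosome, had 14996 and 14370 (-0.007). Exchange factors of the HSP110 type thus lay on both sides of 0, and of the 9 HSPA and HSPH genes with a value, 3 lay above 0.

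HSPA9, the mitochondrial HSP70 that pulls proteins through the inner membrane, has no usable value. Its only probe, at chr5:137919403-137919462 of hg18 on the minus strand, had 1844 in SAS and 5428 in eSAS cells, a log2 ratio of 1.61 that would be the highest of all members. The software had marked the SAS spot as non-uniform. There the mean pixel was 1799 but the median 316, and the pixel SD was 1.25 of the mean, while the eSAS spot had a mean of 5243, a median of 5121.5 and an SD of 0.132 of the mean. The spot lies in row 463, and 2 of its 8 adjacent spots were marked. The 5 adjacent spots well above background on both arrays, with marked ones not left out, had a median of 0.13.

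**Figure D3:**
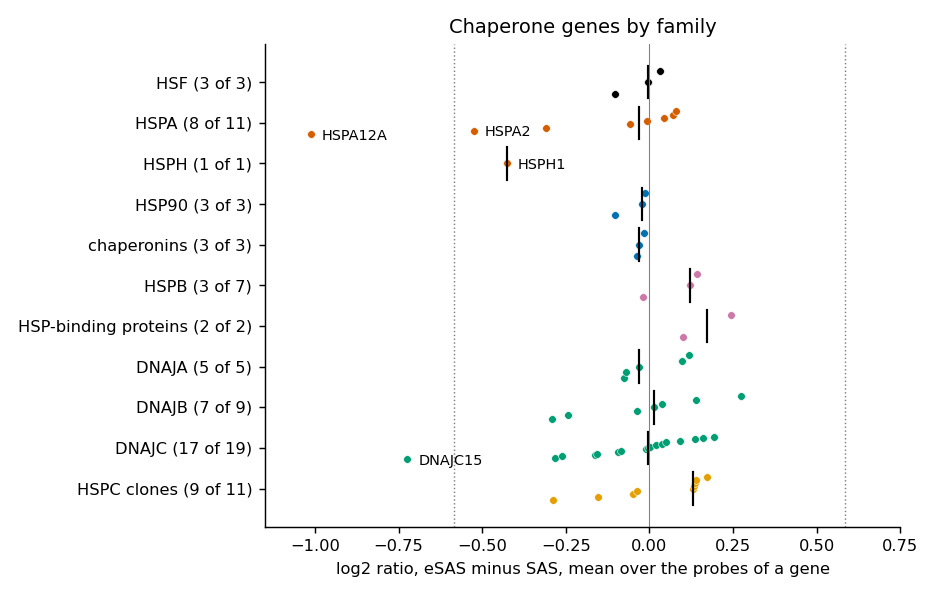
Log2 ratio of eSAS to SAS (x axis) for each of the 61 member genes with a value, by family (y axis, with the number of genes with a value of those on the array). Points are genes, black bars family medians and dotted lines 1.5-fold; HSPA12A and DNAJC15 lie beyond the lower line and no gene beyond the upper one.

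The HSP90 genes and the chaperonin lay within 1.25-fold of equality, as did 78.9% of all genes, but HSP90AA1 was lower by more than the spot SD. HSP90AA1, the inducible cytosolic HSP90, had 4 probes that all lay slightly below 0, from -0.13 to -0.08, with a gene mean of -0.10. One of them was spotted 10 times, with a lowest, median and highest signal of 44704, 47243 and 58720 in SAS and of 40234, 41369 and 49766 in eSAS cells. The ratio was below 0 in 9 of the 10 spots, with a mean of -0.11 ± 0.105 (SD, n = 10 spots of 1 array pair, range -0.25 to 0.11). It was -0.18, -0.21 and -0.25 in array rows 13, 70 and 119, and -0.15 to -0.09 in rows 202 to 307. In row 394 it was -0.008 and 0.11, and in row 470 -0.08. The part of array position in this spread was not tested. The signal ranges of the arrays overlapped, with a coefficient of variation of 8.69% and 8.19%. These spots measure 1 RNA sample of each cell and are no replicates of the cells.

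**Figure D4:**
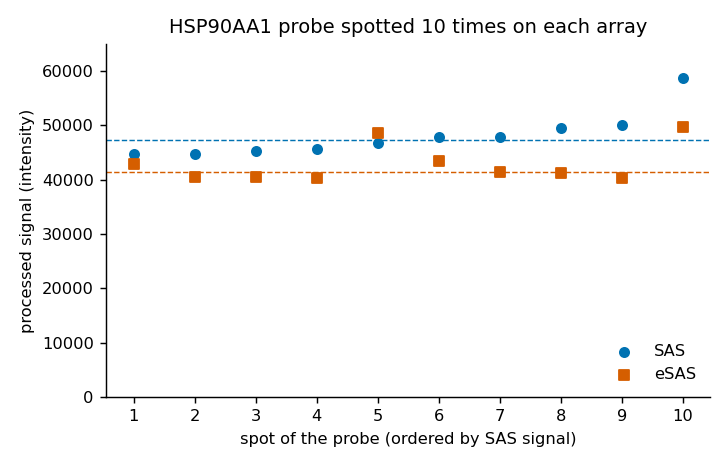
Processed signal (y axis, intensity from 0) of the 10 spots of 1 HSP90AA1 probe (x axis, ordered by SAS signal) on the SAS array (circles) and the eSAS array (squares); dashed lines are the medians, 47243 and 41369. The eSAS spot is the lower one after scaling in 9 of 10 positions.

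HSP90AB1, the constitutive HSP90, had probes with 14619 and 14991 (0.09), 7275 and 7027 (0.00) and 5649 and 4969 (-0.13), on both sides of 0. Its pseudogene HSP90AB3P had 4968 and 4708 (-0.02), and a probe for one can pick up RNA of the other. HSPD1, the large subunit of the mitochondrial chaperonin, had probes with 116836 and 102127 (-0.14) and with 5589 and 5633 (0.07). HSPE1, the lid of the same chaperonin and a neighbour of HSPD1 on a shared promoter, had 72568 and 69043 (-0.02). The pseudogene HSPDP2, now HSPD1P2, lay at -0.03. The 3 chaperonin names thus lay between -0.04 and -0.02, within the spot SD.

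Of 7 small heat shock protein genes, 3 had a value. HSPB1 (HSP27), which holds unfolded proteins and is a normal product of squamous epithelium, had 3 probes, all slightly higher in eSAS cells, with 97962 and 101019 (0.10), 80916 and 85953 (0.14) and 68959 and 75620 (0.19). Its mean of 0.14 was above the spot SD. The probes with 0.14 and 0.19 share 41 bases. HSPB9 had 41.2 and 43.2 (0.12) with 1 of its 2 probes, and HSPB6, known from muscle, had 48.1 and 45.7 (-0.02). HSPB8, the partner of BAG3 in selective autophagy, was not well above background on either array (11.2 and 5.74), nor were HSPB2, HSPB3 and HSPB7. The HSP-binding genes lay above 0, with HSPBP1, an exchange factor for HSP70, at 0.10 in both probes (8649 and 8902, and 1507 and 1561) and HSPBAP1, named for its binding to HSPB1, at 0.24 (1320 and 1504).

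The DNAJ proteins numbered 33 on the array, of which 29 had a value, with 14 above 0 and 15 below. DNAJA1, the main cytosolic partner of HSPA8 in folding, had 3 probes with 36983 and 34167 (-0.06), 20630 and 19126 (-0.05), and 8153 and 7254 (-0.11), with a mean of -0.08. DNAJA5, now DNAJC21, was at 0.12, although its brightest probe had 1399 and 1332 (-0.02). DNAJB1, the heat-inducible HSP40, had 3278 and 3189 (0.01). DNAJB6, which keeps polyglutamine proteins soluble, had 4 probes between -0.18 and 0.11 that averaged -0.04.

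In the DNAJB family, DNAJB12 of the endoplasmic reticulum membrane was at 0.27, next to HSPBAP1 (0.24) at the upper end of all members, and the difference between these genes was within the spot SD. Its 3 probes had 3182 and 3621 (0.24), 5733 and 6350 (0.20) and 1959 and 2449 (0.38), all higher in eSAS cells. At the lower end of the family were DNAJB5 with 424 and 334 (-0.29) and DNAJB2 with a mean of -0.24, again within the spot SD of each other. In the DNAJC family DNAJC12, which binds the aromatic amino acid hydroxylases, had 150 and 165 (0.19), close to DNAJC17 (0.16). Neither family shared a direction.

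DNAJC15 was the lowest DNAJ gene and lay beyond the 1.5-fold limit. It encodes a mitochondrial inner membrane protein, also called MCJ, known as a brake on complex I of the respiratory chain. The ends of its probe lie at chr13:42550818-42557956 of hg18 on the plus strand, 7139 bases apart, so the probe crosses at least 1 intron and reads spliced RNA. The signal was 32867 in SAS and 19166 in eSAS cells, 1.65-fold lower, with a log2 ratio of -0.72. Both spots were far from the marked rows (row 145), their pixels were even, with an SD of 0.0367 and 0.0323 of the mean, and the 5 usable adjacent spots had a median of 0.14. DNAJC19, its close relative in the import motor, was named after its values were seen; its probes had 712 and 773 (0.17) and 5388 and 5237 (0.01).

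The other DNAJ genes are given by the place where their products act. In mitochondria, DNAJA3 had 7366 in SAS and 7588 in eSAS cells (log2 ratio 0.10), and DNAJC11, which is tied to the cristae junctions, had probes with 2115 and 2088 and with 194 and 192 (0.04 in both). With DNAJC15 lower and DNAJC19 not, the mitochondrial members had no common direction. In the endoplasmic reticulum, DNAJB14, the close relative of DNAJB12, was also on the higher side with 1316 and 1423 (0.17) and 1584 and 1645 (0.11). DNAJC10, a disulfide reductase, had 4061 and 3774 (-0.05) and 4777 and 4788 (0.06), and DNAJC1 had 2164 and 1967 (-0.08). DNAJC18, which is also anchored in this membrane, was lower with both probes, 623 and 486 (-0.31) and 416 and 334 (-0.26). The probes of DNAJB12 and DNAJB14 were thus all higher in eSAS cells, by 0.11 to 0.38 on the log2 scale, those of DNAJC18 were lower, and the members of this compartment had no common direction.

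Of the members that act on membranes and vesicles, DNAJC5, the cysteine string protein, had 824 and 743 (-0.10). DNAJC6, the auxilin that uncoats clathrin vesicles, had 224 and 219 (0.02) with 1 of its 2 probes, and DNAJC13, which acts at endosomes, had 2116 and 2240 (0.14). In the nucleus, DNAJC8, a protein of the spliceosome, was slightly lower with all 3 probes, 8843 and 8058 (-0.08), 1086 and 919 (-0.19), and 1463 and 1221 (-0.21). DNAJC9, a chaperone for histones, had 17067 and 16389 (-0.004), and DNAJC17, also linked to splicing, had 161 and 174 (0.16). The splicing-linked DNAJC8 and DNAJC17 therefore lay on opposite sides of 0 by more than the spot SD.

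In the cytosol, DNAJA2, which works with HSPA8 like DNAJA1, had 3955 and 3624 (-0.07), and DNAJC7, which passes clients between HSP70 and HSP90, had 3257 and 3117 (-0.009). DNAJB4 had 106.5 and 104.5 (0.03) and 174 and 173 (0.05). DNAJB2, which also binds ubiquitin chains, was lower with both probes, 6538 and 5022 (-0.33) and 181 and 156 (-0.16). DNAJC4, whose place in the cell is not given here, was also lower with both, 1272 and 1132 (-0.11) and 264 and 220 (-0.21). None of these reached 1.5-fold.

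Where a gene had several probes, their ratios were compared. Of 26 members with 2 or more probes, 16 had all probes on 1 side of 0, which was not counted over the array. In 2 of the 26 the probes differed by over 1.5-fold, where 289 of 5334 such genes over the array (5.42%) did. The first was DNAJA4, a cytosolic partner of HSP70, with 1375 and 1261 (-0.07), 103 and 144 (0.54) and 24.6 and 16.0 (-0.56). Its mean of -0.03 hides that the dimmer probes pointed apart. The second was DNAJC16, with 593 and 684 (0.26) and with 64.2 and 36.0 (-0.78), so that its mean of -0.26 is the mean of opposite values. DNAJC14 had 1 probe with 1514 and 1510 (0.05) and another that was well above background in SAS alone (19.5 and 13.4), lower in eSAS by at least 1.24-fold.

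**Figure D5:**
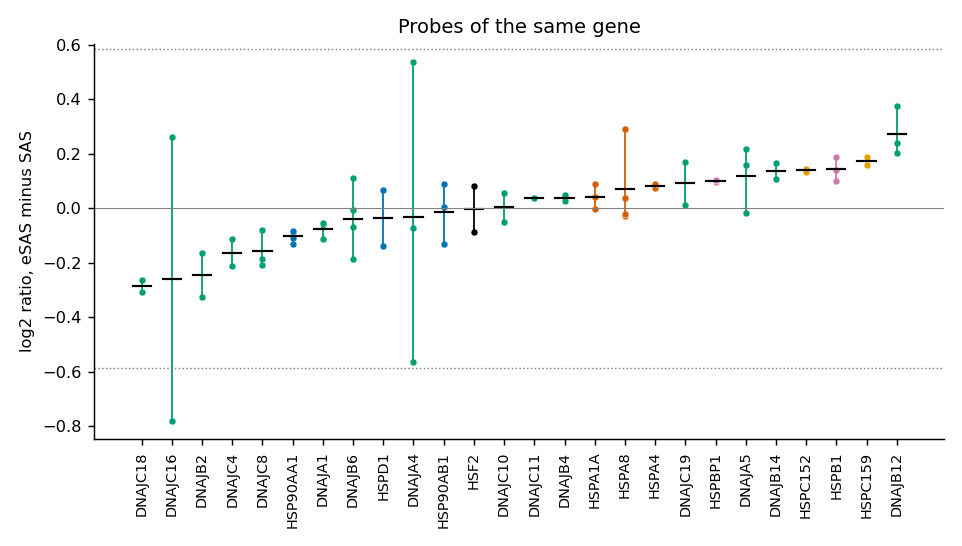
Log2 ratio of eSAS to SAS (y axis) of each probe (points) of the 26 members with 2 or more usable probes (x axis, ordered by gene mean). Vertical lines join the probes of a gene, black bars are gene means and dotted lines 1.5-fold; DNAJC16 and DNAJA4 have the widest ranges.

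The HSPC clones had a median of 0.13 over 9 of 11 names. They ran from HSPC049, now WDR91, with 1208 and 953 (-0.29), to HSPC159, now LGALSL, with 1353 and 1484 (0.19) and 548 and 588 (0.16). The others with a value were HSPC111, now NOP16, a nucleolar protein (40369 and 42618, 0.13), HSPC152, now TRMT112, a partner of methyltransferases (0.15 and 0.13), HSPC157, now LINC00339 (353 and 372, 0.13), HSPC048, now CCDC82 (38.2 and 40.4, 0.14), HSPC148, now CWC15 (-0.05), HSPC171, now TMEM208 (-0.04), and HSPC268, now FMC1 (1876 and 1625, -0.15). None of them passed 1.5-fold. HSPC072, now LINC00652, was well above background on the SAS array alone, but so near the limit that no fold is given. HSPC105 was on neither. The other members with no value because they were not well above background on either array were DNAJB7, DNAJB8, DNAJC5B, DNAJC5G and HSPA12B.

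The 6 members with a 3-unit element and a value had a median log2 ratio of -0.04 and lay between -0.10 (HSP90AA1) and 0.07 (HSPA8), with an SD of 0.06. The 50 members with a window but no such element had a median of -0.0003 and lay between -1.01 and 0.27, with an SD of 0.24. Both genes beyond 1.5-fold, HSPA12A and DNAJC15, were among the latter, and 4.99% of all genes were lower by that fold. With 2 units this split did not hold, since DNAJC15 had a match. Then 1 of 18 members with a match and 1 of 38 without were lower. None of the 6 passed 1.25-fold, within which 78.9% of all genes lay. The groups differ in more than the element, since the 6 were means over 2 to 4 probes while HSPA12A and DNAJC15 had 1 usable probe each. HSPA1A, DNAJB1, HSPH1 and HSPE1 had no 3-unit match in their windows and count among the 50. No test of this split was made.

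Other genes of the chaperone machinery were followed in a list of 36 partners, of which 35 had a value. Their median was 0.006 with an SD of 0.16, beside an SD of 0.37 over all genes. Of the 35, 0 were beyond 1.5-fold in either direction, where 3.19% of all genes were higher and 4.99% lower. Within 1.25-fold lay 32 of them and 78.9% of all genes. The 9 listed genes for subunits of the cytosolic chaperonin TRiC, with CCT6A and CCT6B counted apart, had an SD of 0.07 around a median of -0.0002. BAG3, a target of HSF1 and an exchange factor for HSP70, had 13242 and 13018 (0.03) and 1706 and 1624 (-0.02). AHSA1, the activator of the HSP90 ATPase, had 9033 and 8723 (0.00). STIP1, which joins HSP70 to HSP90, had 1067 and 1058 (0.04) with one probe and 1143 and 1510 (0.46) with the other.

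The highest partner value was that of FKBP5, beside BAG2 at 0.35 (a difference within the spot SD). FKBP5 is an HSP90 co-chaperone that glucocorticoids are known to induce, and its probes had 602 and 760 (0.39) and 381 and 488 (0.41). At the lower end was HSBP1, which binds HSF1 trimers, with 2183 and 1673 (-0.33). A second HSBP1 probe had 21579 and 48577, a log2 ratio of 1.23, but like that of HSPA9 its SAS spot was marked, and it was not used. SERPINH1, the collagen chaperone HSP47, had 1751 and 1381 (-0.29).

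The handling of background moved some of these values. With uncorrected mean pixels, 5 of 31 named genes moved by more than the spot SD, among them HSPA12A (-0.79), HSPA1L (-0.13) and DNAJC16 (-0.04). With normexp, a model-based background correction, over all spots, 29 of the 31 did so and 17 changed sign. The median of all genes moved to 0.68. By 1.5-fold, 20 members were then higher and 7 lower in place of 0 and 2, beside 52.4% and 6.92% of all genes. With 26 spots of marked local background left out of the same model, an alternative chosen after the data were seen, the counts were again 0 and 2.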

How the data were processed

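SAS and eSAS RNA was hybridised to 2 one-colour arrays, 1 for each cell population, on 1 slide. The authors deposited the output of Agilent Feature Extraction 10.7.3.1 (per the submitters' processing notes), as linear intensity; the software had subtracted background from the processed signal, with no scaling between arrays. The deposited table of the whole series held the same values in all 43376 non-control spots. Spots were left out where the software marked them as non-uniform or as population outliers. Processed signals were divided by the 75th percentile of the non-control spots of their array and put on the log2 scale, replicate spots were averaged, and a gene is the mean over its probes well above background on both arrays (over 50 percent of spots). A probe well above background on 1 array alone has a lower bound, computed against its own dim signal or the floor of signals well above background there (12.8 for SAS, 15.2 for eSAS), whichever is higher.

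The 74 members all matched RefSeq, 13 under another current symbol. Probe positions come from the array files (hg18), and their exon annotation was not used here; promoters are from RefSeq on GRCh38.p14. The members and the lists of partners and markers were chosen with earlier results of these data known. Named were the HSF genes, a set of major chaperones, the highest and lowest gene of each family, genes at least 1.5-fold apart or with discordant probes, and members with marked spots; other members were named after their values were seen. With 1 array per cell there was no test. Alternatives were other scalings, background corrections, filters, probe summaries and array regions. The steps were checked on data simulated from the SAS array with the spot SD as noise for every spot. The dimmer probes of the real arrays spread more, so this checks the computation and not the precision of the values. Computations used Python 3.11.15 and, for normexp and quantile normalization, limma 3.58.1 in R 4.3.3.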

Additional observations from a re-analysis of the deposited data

How the results depend on the processing

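The median over the members, their SD and the counts beyond 1.5-fold kept within the limits set for them with quantile normalization, centring on the median or no scaling, with uncorrected mean or median pixels, with probes dim on 1 array let in, with the brightest or the median probe of a gene, and without the HSPC clones. Normexp over all spots moved the median over members to -0.14, that of the partners to -0.17 and the SD over members to 0.94. The counts moved to 20 higher and 7 lower, beside 52.4% and 6.92% of all genes. Normexp also turned HSPA12A to 0.70, close to the median of all genes of 0.68 in that setting. Under it 29 of 31 named genes moved by more than the spot SD and 17 changed sign, among them HSPA2 (0.71), HSPA1L (2.11), HSPB1 (-0.45) and DNAJB12 (-0.13). Without its 26 spots of marked local background, 5 of 31 moved and 2 changed sign. With uncorrected mean pixels these counts were 5 and 3, and with median pixels 6 and 4. In these settings 2.67% and 2.64% of all genes were at least 1.5-fold lower, beside 2 of 61 members in each. The scalings changed the sign of 3 to 6 named genes and moved none by more than the spot SD. No scaling and centring on the median shift every log2 ratio by the same amount. The SD over members therefore could not change with them, and they do not check single genes apart from one another. With marked spots kept, 1 member, HSPA9, was higher, where 3.56% of all genes were. With no filter on dim probes, 5 members were lower, where 8.52% of all genes were, and the SD over members was 0.38. The 5 were DNAJC15, HSPA6, HSPB7, HSPB8 and HSPC072, of which only DNAJC15 was well above background on both arrays. HSPA12A, at -0.50, was no longer among them. Leaving out rows 450 to 510 left 1 member lower, DNAJC15, where 5.01% of all genes were. With 2 units in place of 3, 35.4% of the 65 members with a window had a match, beside 16.2% of all genes. DNAJC15 lay between -1.29 and -0.68 over 14 settings. No paired analysis was possible because each cell had 1 array and no test was made. Spot SD is technical, so values within about that size have no order, and dim probes carry the widest spread.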
